A study of Ovis aries with 14 samples.

Results

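FGFR3, FGF1, NKX2.2, AQP4 and AQP1 are 5 genes of FGF signalling, glial specification and water transport whose transcripts were followed in the hypothalamus of fetal sheep exposed to triclosan, an antibacterial compound of soaps and toothpastes. They were taken by name, as every probe on the array named for one of the 5 genes in the scanner files or matched to it through RefSeq transcripts. That gave 8 probes of 15008 and 5 genes of the 964 that carry a symbol. The 4 groups compared are fetuses at about 130 days of gestation, and each infusion lasted 2 days. In the direct arm the fetus received an intravenous infusion of vehicle (n = 4) or of triclosan (n = 4), dosed at 250 µg per day. For the indirect arm the mother was given vehicle (n = 2) or triclosan (n = 3), dosed at 100 µg per kg per day, and the fetal hypothalamus was again what was measured. The fetuses of the direct arm carried chronic catheters, and all arms were labelled as hypothalamus with total RNA on single-colour arrays. The labels give no strain, genotype or sex. Maternal vehicle replicate 3 was left out, because it was a weighted sum of the others, with a weight of 0.6 on replicate 1 and 0.4 on replicate 2 that held at 15744 of 15744 spots within 0.01%. The sources used here do not say which pregnancies the arrays came from. The tests treat the arrays as independent, so p-values may be too small if some arrays share a pregnancy.

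Fibroblast growth factors are secreted ligands that bind receptor tyrosine kinases together with heparan sulphate, and the receptors pass the signal on through the MAP kinase, PI3 kinase and STAT routes. FGF1 is a ligand able to bind all FGF receptors, and in brain FGFR3 is carried mainly by radial glia and astrocytes. NKX2.2 is a homeodomain transcription factor of the ventral neural tube and ventral hypothalamus, induced there by Sonic hedgehog and later needed for oligodendrocyte differentiation. AQP4 is the main water channel of the brain and sits in astrocyte endfeet and ependyma, whereas AQP1 is in brain a water channel of the choroid plexus.

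Probes of FGFR3, AQP1, FGF1 and AQP4 are printed here because every value of these genes below is the signal of one such short stretch, and because FGFR3 and AQP1, like NKX2.2, were each read by a pair of probes that are almost the same molecule. Each is 60 bases long, written 5′ to 3′ as in the scanner files, and capitals mark the 59 bases that both probes of a gene share.
FGFR3 probe 1: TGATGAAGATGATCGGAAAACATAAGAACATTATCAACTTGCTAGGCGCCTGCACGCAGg
FGFR3 probe 2: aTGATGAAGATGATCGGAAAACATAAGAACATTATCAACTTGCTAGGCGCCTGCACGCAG
AQP1 probe 1: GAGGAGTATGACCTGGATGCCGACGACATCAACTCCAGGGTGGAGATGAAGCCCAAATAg
AQP1 probe 2: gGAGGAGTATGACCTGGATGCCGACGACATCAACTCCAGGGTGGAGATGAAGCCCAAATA
FGF1 probe: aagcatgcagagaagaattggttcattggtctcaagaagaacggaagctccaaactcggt
AQP4 probe: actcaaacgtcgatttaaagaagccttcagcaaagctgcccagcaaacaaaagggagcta
The probes of a pair are shifted by 1 base, so they repeat a measurement and do not sample different parts of a transcript. The FGFR3 probes lie in the receptor's kinase domain, a stretch that related family members carry in similar form. No probe of another gene on the array shared a run of 15 or more bases with any of the 8 member probes. That search covered probes only, so whether transcripts of other FGF receptors bind the FGFR3 probes was not tested. GC content was 43.3% and 45% in the FGFR3 probes, 45% in those of FGF1 and AQP4 and 53.3% in both AQP1 probes.

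Median processed signals per array lay at 236.1 to 307.4 in the fetal triclosan group, below the 315 to 380 of the fetal vehicle group, and at 284.3 to 375.8 and 350.9 to 353.9 in the maternal triclosan and vehicle groups. The share of spots well above background was 83.3% to 90.1%, with 0 saturated spots. Levels below are log2 of the processed signal minus the array's 75th percentile, so that 0 is the 75th percentile of that array, and differences are triclosan minus vehicle on that log2 scale. They compare a probe with itself across arrays and do not rank genes. In bulk tissue, fewer cells of a type and less RNA per cell cannot be told apart. Of 10 neuronal markers listed, 0 were named on this array. OXT, a peptide of hypothalamic neurons, was well above background on 13 of 13 arrays. So were the pituitary genes LHB and POMC, and most spots passed that flag, so it does not check the tissue label.

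Of the 5 genes, FGFR3 and NKX2.2 fell when triclosan was infused into the fetus. FGFR3 was 3.05-fold lower and NKX2.2 2.11-fold lower than with vehicle, and the 2 probes of each gene gave the same call. The size for FGFR3 rests on a dim signal, and the log2 difference of −1.61 was −0.64 with the authors' deposited values and −0.40, without a call, with normexp background correction. FGF1, AQP4 and AQP1 did not pass the test in that arm. Among all 13740 probes tested 11.3% were called lower, 6.8% higher and 18.1% in either direction (limma, Benjamini-Hochberg adjusted p under 0.05), so calls were common in this arm. Under median scaling the balance turned, with 946 probes called lower and 2174 higher, and FGFR3 and NKX2.2 were still called lower. With triclosan infused into the mother 0 of the 5 genes passed the test, and 0 of 13740 probes did, or 0% (9.64%, or 1324 probes, at an unadjusted p under 0.05).

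**Figure D1:**
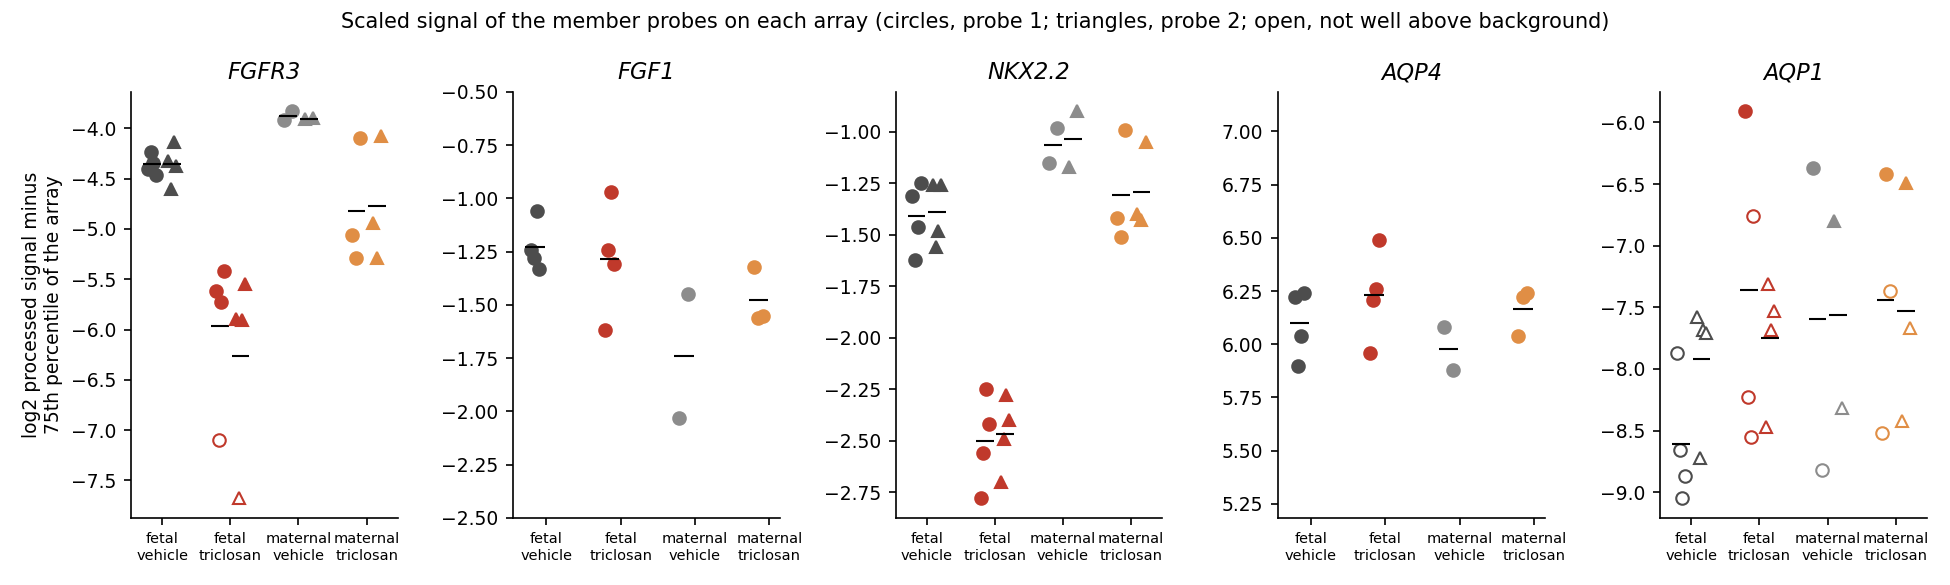
Log2 scaled signal of each member probe on each of the 13 arrays, by group, with bars at group means; circles are probe 1, triangles probe 2, open symbols not well above background, and each panel has its own vertical scale. The FGFR3 and NKX2.2 panels have the fetal triclosan arrays below all fetal vehicle arrays, as for 12.6% of probes. In the FGF1 and AQP4 panels the same groups overlap, and most AQP1 symbols are open.

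FGF1 is the ligand of the set. Its level on the fetal vehicle arrays was −1.24, −1.28, −1.06 and −1.33, and on the fetal triclosan arrays it was −1.62, −1.24, −0.97 and −1.31. The highest and the lowest of these 8 values both came from fetal triclosan arrays, and the groups overlapped. The difference was −0.06 (SE 0.16, 95% interval −0.41 to 0.30, limma adjusted p = 0.831). Its sign is not settled, since median scaling gave 0.16, quantile normalisation 0.07, the authors' deposited values 0.11, normexp background correction 0.01 and the fit without fetal triclosan replicate 1 0.05, each without a call. In the indirect arm the vehicle arrays had −2.03 and −1.45 and the triclosan arrays −1.32, −1.56 and −1.55. Maternal vehicle replicate 1 was the lowest of all 13 arrays, and the other maternal vehicle array lay inside the range of the triclosan arrays. The indirect difference was 0.27 (SE 0.21, 95% interval −0.19 to 0.72, adjusted p = 0.679), and without that replicate it was −0.02. Both maternal vehicle arrays lay below all fetal vehicle arrays, a pattern that 7.85% of probes had, and the difference between the vehicle groups of −0.51 (SE 0.20) had an unadjusted p of 0.0246 and an adjusted p of 0.999 by limma. It was −0.22 without maternal vehicle replicate 1 and −0.80 without maternal vehicle replicate 2. An unadjusted p under 0.05 was reached by 3.27% of probes in that contrast and an adjusted one by 0%.

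FGFR3 is the receptor of the set. With fetal vehicle, probe 1 had −4.40, −4.23, −4.34 and −4.46. With fetal triclosan it had −5.62, −7.10, −5.73 and −5.42. All 4 triclosan arrays lay below all vehicle arrays, a separation toward lower values that 12.6% of probes had, and replicate 2 lay far below the other triclosan arrays and was not well above background. Probe 2 had −4.32, −4.60, −4.13 and −4.37 with vehicle and −5.90, −7.68, −5.91 and −5.55 with triclosan, again with no overlap and with replicate 2 dim and lowest. FGFR3 fell by 1.61 on the log2 scale at probe 1 (SE 0.35, 95% interval −2.37 to −0.85, adjusted p = 0.0106). Probe 2 fell by 1.91 (SE 0.41, 95% interval −2.81 to −1.01, adjusted p = 0.0106). Without fetal triclosan replicate 2 the differences were −1.23 and −1.43, with adjusted p of 0.0115 and 0.00898. The signal was low in absolute terms, since the mean signal over local background at probe 1 was 100 intensity units with fetal vehicle and 47.6 with fetal triclosan. With normexp background correction probe 1 gave −0.40 (adjusted p = 0.104) and lost its call, while probe 2 gave −0.61 (adjusted p = 0.038). In the authors' deposited table, probe 1 read 6.64, 6.96, 6.66 and 6.48 with fetal vehicle and 6.04, 5.76, 6.0 and 6.38 with fetal triclosan, which did not overlap, and a limma fit of that table gave −0.64 (adjusted p = 0.0191).

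In the indirect arm FGFR3 probe 1 was at −3.92 and −3.83 with vehicle and at −5.06, −5.29 and −4.10 with triclosan. All 3 triclosan arrays lay below both vehicle arrays, as they did for 19.1% of probes, and replicate 3 lay close to the vehicle arrays. Probe 2 had −3.91 and −3.90 against −4.94, −5.29 and −4.08. The differences were −0.94 at probe 1 (SE 0.45, 95% interval −1.92 to 0.04, adjusted p = 0.535) and −0.87 at probe 2 (SE 0.53, adjusted p = 0.598), so neither passed. The direct difference minus the indirect one was −0.66 (SE 0.57, adjusted p = 0.564), and the arms were therefore not shown to differ for this gene. Within slides that held arrays of both groups, the direct difference at probe 1 was −1.22, −2.86 and −1.33 on slides 1, 2 and 3, and the indirect one was −1.14 and −1.46 on slides 1 and 2.

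NKX2.2, the transcription factor of the set, gave the tighter of the called differences. Probe 2, the brighter one, read −1.26, −1.56, −1.48 and −1.26 with fetal vehicle. With fetal triclosan it read −2.70, −2.49, −2.28 and −2.40. The highest triclosan array lay well below the lowest vehicle array, a separation toward lower values that 12.6% of probes had. Every array of the gene was well above background. NKX2.2 fell by 1.08 on the log2 scale (SE 0.14, 95% interval −1.38 to −0.77, limma adjusted p = 0.00258). Probe 1 fell by 1.09 (SE 0.15, adjusted p = 0.003), from −1.31, −1.62, −1.46 and −1.25 to −2.78, −2.56, −2.25 and −2.42. The call held in all 28 alternatives run, with values from −1.14 to −0.86 and adjusted p from 0.000817 to 0.0149. Mean signal over local background at probe 2 was 748 units with fetal vehicle and 311 with fetal triclosan. The differences within slides 1, 2 and 3 were −1.44, −0.93 and −0.91.

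After maternal infusion NKX2.2 probe 2 was at −1.17 and −0.90 with vehicle and −1.40, −1.43 and −1.05 with triclosan. Triclosan replicate 3 lay between the vehicle arrays, so the groups overlapped. The difference was −0.26 (SE 0.18, 95% interval −0.65 to 0.13, adjusted p = 0.633), and it was −0.39 without maternal vehicle replicate 1 and −0.13 without maternal vehicle replicate 2. All 4 fetal triclosan arrays were below all 3 maternal triclosan arrays for both NKX2.2 and FGFR3, an order that 15% of probes had. For NKX2.2 the direct difference minus the indirect one was −0.82 (SE 0.22, 95% interval −1.31 to −0.32), with an unadjusted p of 0.00373 and an adjusted p of 0.239 by limma. At an unadjusted p under 0.05, 14.7% of probes differed between the arms, and 0% did after adjustment.

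**Figure D2:**
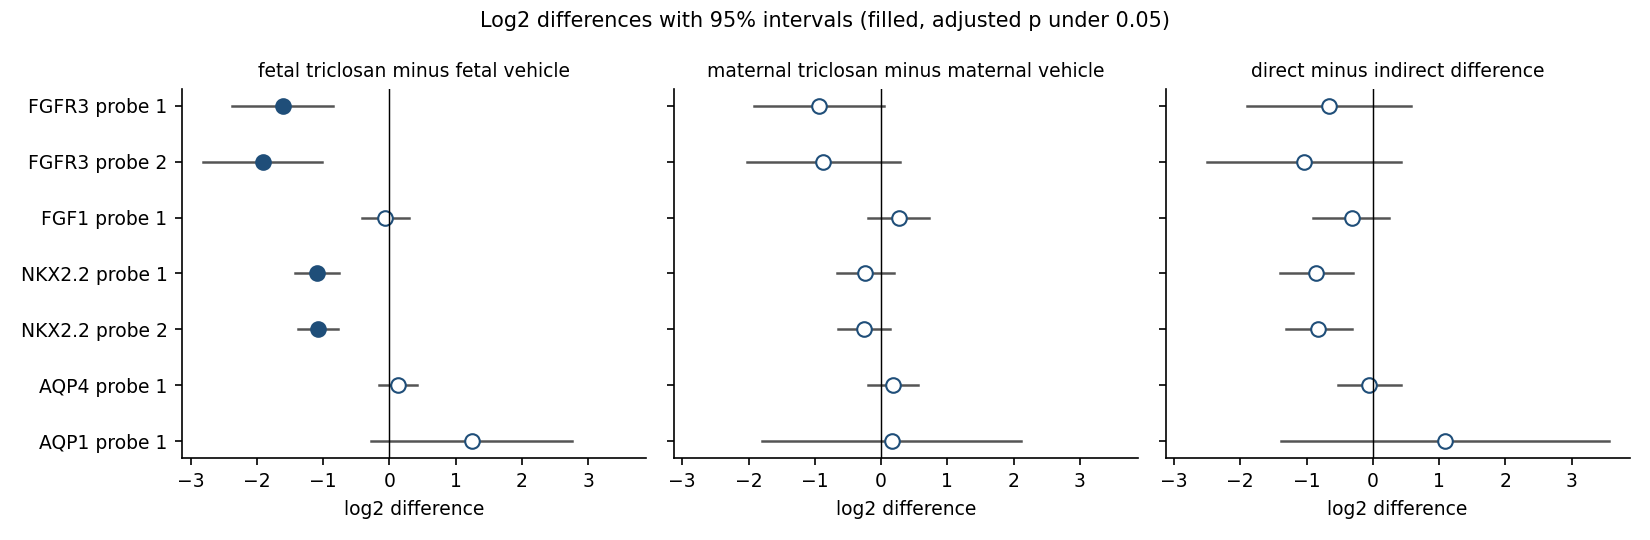
Log2 differences of the 7 member probes tested with 95% intervals, for direct exposure, indirect exposure and direct minus indirect; filled points had an adjusted p under 0.05. The 4 filled points are both probes of FGFR3 (−1.61 and −1.91) and both of NKX2.2 (−1.09 and −1.08) under direct exposure, and the interval of AQP1 is the widest in each panel.

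AQP4, the astrocyte water channel, gave a very bright signal on every array. It read 6.22, 5.90, 6.04 and 6.24 with fetal vehicle and 5.96, 6.21, 6.26 and 6.49 with fetal triclosan. The ranges overlapped, and fetal triclosan replicates 3 and 4 lay above all vehicle arrays. The difference was 0.13 (SE 0.13, 95% interval −0.16 to 0.42, limma adjusted p = 0.537), so a rise or fall of AQP4 as large as the fall of FGFR3 or NKX2.2 lies outside the interval under this scaling. Its sign depended on the scaling, and quantile normalisation gave −0.20, the authors' deposited values −0.25 and median scaling 0.35 (adjusted p = 0.0893), all without a call. With maternal vehicle AQP4 was at 6.08 and 5.88 and with maternal triclosan at 6.04, 6.22 and 6.24, again overlapping. That difference was 0.18 (SE 0.17, 95% interval −0.19 to 0.56, adjusted p = 0.72), and it was −0.09 with the authors' values.

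AQP1, the choroid plexus water channel, was at the floor of the array. Its probe 1 was well above background on 0 of 4 fetal vehicle arrays and 1 of 4 fetal triclosan arrays, and on 1 array of each maternal group. The values were −7.87, −8.66, −9.05 and −8.87 with fetal vehicle and −5.91, −8.23, −8.55 and −6.76 with fetal triclosan, where −5.91 was the measured one. The fitted difference was 1.25 (SE 0.69, 95% interval −0.27 to 2.76, adjusted p = 0.235). Because 7 of these 8 values were not well above background, no fold is given. With every value raised to a common floor, an alternative chosen after the data were seen, the difference was 0.41 (SE 0.28, adjusted p = 0.343). The second AQP1 probe did not carry this pattern, with −7.58, −8.72, −7.68 and −7.71 against −8.47, −7.31, −7.68 and −7.53 and 0 of 8 arrays well above background. Probe 2 was well above background on 2 of 13 arrays, fewer than the 3 asked for, and was not tested. With maternal infusion probe 1 was at −6.37 and −8.82 with vehicle and −8.52, −6.42 and −7.37 with triclosan, where −6.37 and −6.42 were the measured arrays. The difference of 0.16 (SE 0.89, adjusted p = 0.964) changed sign under 7 alternatives and is not interpretable as a direction.

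On the array where the AQP1 probes differed most, fetal triclosan replicate 1, they were 2.56 apart on the log2 scale although they share 59 of 60 bases. Across the 13 arrays the median gap between the probes of a pair was 0.50 for AQP1, 0.11 for FGFR3 and 0.05 for NKX2.2. The pairs correlated at r = 0.41, 0.99 and 1 respectively, as a description over arrays that share labelling and slides. These gaps are within arrays and do not measure the spread between fetuses. For FGFR3 the largest gap, 0.59, was on the dim fetal triclosan replicate 2.

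**Figure D3:**
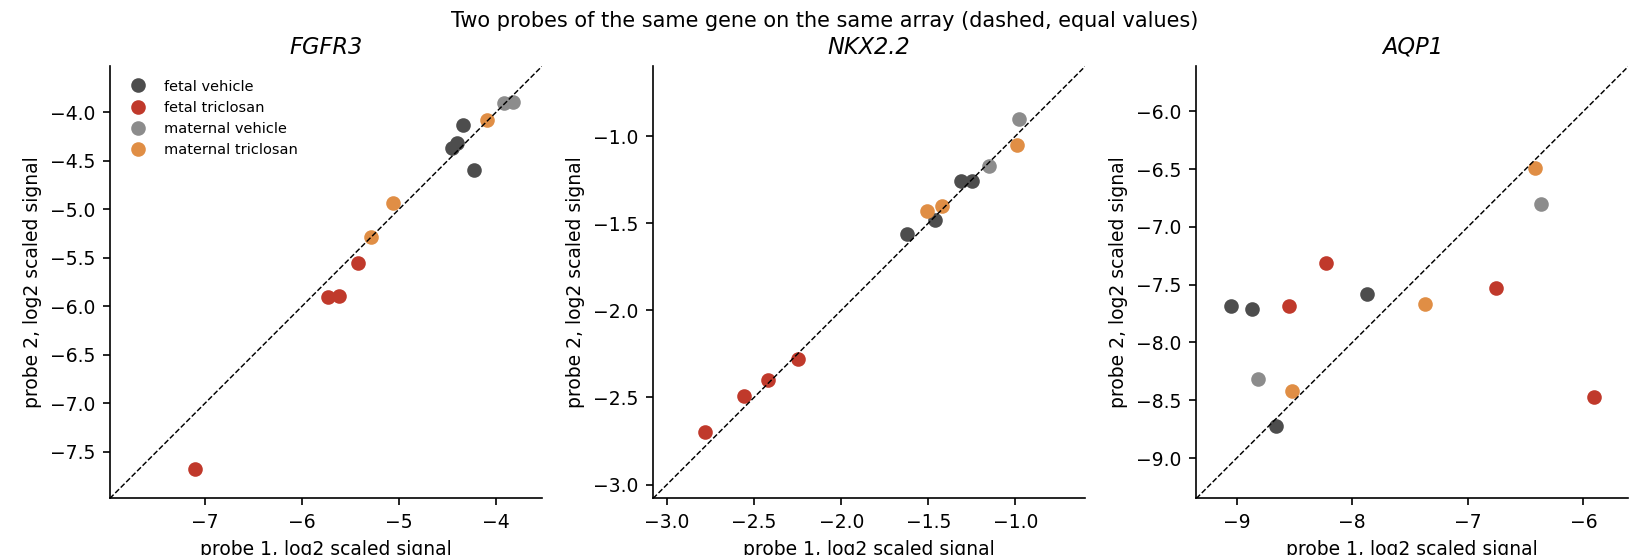
Log2 scaled signal of probe 2 against probe 1 of the same gene on each of the 13 arrays, coloured by group, with a dashed line of equal values. NKX2.2 lies on the line, FGFR3 leaves it by at most 0.59, and AQP1 scatters by up to 2.56.

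Ordered by group means, FGFR3 probe 1 stood at −3.88 ± 0.06 (SD, n = 2) with maternal vehicle, −4.36 ± 0.10 (n = 4) with fetal vehicle, −4.82 ± 0.63 (n = 3) with maternal triclosan and −5.97 ± 0.76 (n = 4) with fetal triclosan. Of these neighbours, fetal vehicle and maternal triclosan overlapped and the other pairs did not. NKX2.2 probe 2 stood at −1.03 ± 0.19, −1.29 ± 0.21, −1.39 ± 0.15 and −2.47 ± 0.18 with maternal vehicle, maternal triclosan, fetal vehicle and fetal triclosan, and the fetal triclosan group was the one that overlapped no neighbour. The means of FGF1 ran from −1.23 ± 0.12 with fetal vehicle to −1.74 ± 0.41 with maternal vehicle, those of AQP4 from 6.23 ± 0.22 (fetal triclosan) to 5.98 ± 0.14 (maternal vehicle), and those of AQP1 probe 1 from −7.37 ± 1.24 with fetal triclosan to −8.61 ± 0.52 with fetal vehicle. In these 3 genes every pair of neighbours overlapped. Both maternal vehicle arrays were above all fetal vehicle arrays for FGFR3 and NKX2.2, as for 9.36% of probes, and neither difference between the vehicle groups was called, at 0.48 (SE 0.42) and 0.36 (SE 0.17), with adjusted p of 0.999 by limma. That contrast shares its arrays with the exposure contrasts.

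FGFR3 and NKX2.2 moved together between groups more than within them. Over the 13 arrays they correlated at r = 0.84, and at r = 0.29 once each group's mean was removed. The genes most like FGFR3 over the arrays were PSAP, the precursor of the saposins of lysosomes (r = 0.98), HSP70.1, a stress-inducible chaperone (r = 0.98), and CCND3, a cyclin of the cell cycle (r = 0.96). For these the correlation stayed at 0.94, 0.92 and 0.90 after removing group means, against a median r of 0.17 over 887 named genes before it. They were picked as the highest of those genes. FGFR3 departed most from its group mean on fetal triclosan replicate 2, at −7.10 and not well above background. The correlations without that array were not computed. PSAP and HSP70.1 fell with direct exposure, with differences of −0.98 and −1.48 (adjusted p = 0.00429 and 0.00521), and CCND3 had a value of −0.44 (adjusted p = 0.0507). The genes most like NKX2.2 were FGFR1, the most widely expressed FGF receptor (r = 0.96), STAT5A, a cytokine-activated transcription factor (r = 0.94), and TRAF3, an adaptor of innate immune receptors (r = 0.94), with 0.62, 0.74 and 0.51 after removing group means. All 3 fell with direct exposure, with differences of −0.99, −0.97 and −0.98. The genes were picked by correlation with group differences left in. A fall shared with FGFR3 or NKX2.2 is thus partly built into that choice and adds no support. The gene most like AQP4 was HSD11B1, which regenerates active glucocorticoid, at r = 0.84 and 0.79 after removing group means, followed by NOX4 (r = 0.72) and PCNA (r = 0.68). For FGF1 no gene exceeded r = 0.68 (UNC, with TAC1 at 0.63), and for AQP1, mostly at background, CP had r = 0.85, NARS 0.79 and PH20 0.72. These correlations are descriptions over 13 arrays that share slides and labelling.

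FGFR1, another receptor of the family, whose probes carry its gene number in the files, fell in the same arm. Its brighter probe read −3.08, −3.37, −3.25 and −2.87 with fetal vehicle and −4.07, −4.43, −3.93 and −4.11 with fetal triclosan. All 4 triclosan arrays were below all vehicle arrays, as for 12.6% of probes. The difference was −0.99 (SE 0.15, adjusted p = 0.00376), its other probe gave −1.10 (SE 0.24, adjusted p = 0.0124), and the call held in all 28 alternatives. FGFR2, the remaining receptor measured, was read by probes designed on the IIIb form, an isoform typical of epithelia, and had −4.40, −4.15, −3.96 and −4.14 with vehicle and −4.09, −3.93, −3.82 and −4.88 with triclosan, where replicate 4 was the lowest of all 8 arrays and the groups overlapped. Its difference was −0.02 (SE 0.21, 95% interval −0.47 to 0.44, adjusted p = 0.964). Of the 15 receptors and co-receptors listed 3 were measured, 2 fell and 0 rose. The 2 are FGFR1 and FGFR3 itself, and the median difference of −0.99 is FGFR1's own value. The list thus adds nothing to the values of these genes. Over all 903 named genes tested the median was −0.10, and 8.97% fell and 5.98% rose.

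Among 5 of 22 listed FGF ligands measured, 1 fell and 0 rose, with a median of −0.06. FGF18, a ligand preferring the c-type receptor isoforms, fell by 0.76 (SE 0.24, adjusted p = 0.0482). Its 4 triclosan arrays at −5.01, −4.67, −4.66 and −5.09 overlapped the vehicle arrays at −4.17, −3.97, −3.45 and −4.80, and the call was lost in 20 of 28 alternatives. FGF2, a ligand made by astrocytes, had 0.13 (SE 0.20), FGF10 −0.37 (SE 0.18) and FGF7, a ligand of epithelial receptor forms, −0.02 (SE 0.34). For FGF10 the 4 probes disagreed, from −0.37 to 0.88, and for FGF7 they gave −0.02 and 0.73, none of them called. Of the signal relay 2 of 23 listed genes were measured and 0 passed, with AKT1 at −0.30 (SE 0.19, adjusted p = 0.304). Of the 16 listed feedback and target genes 3 were measured and 0 passed, with a median of 0.09. EGR1 had 0.32 (SE 0.14, adjusted p = 0.143), MYC 0.09 (SE 0.21) and FOS −0.31 (SE 0.25), and the sprouty and dual-specificity phosphatase feedback genes were not among those named on the array. For FOS the brightest probe was not called while 3 of its 4 probes were, in a direction not given here. The count of 0 for the targets thus holds for the brightest probes. In the indirect arm 0 genes of these 4 lists passed.

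The astrocyte list divided. Of 17 listed genes 7 were measured, 2 fell and 1 rose under direct exposure, with a median of −0.30, where 8.97% of all named genes fell and 5.98% rose. Besides FGFR3, EAAT1, a glutamate transporter of astrocytes and radial glia, fell by 0.77 (SE 0.17, adjusted p = 0.0132) at both its probes. MT3, a brain metallothionein, rose by 0.71 (SE 0.19, adjusted p = 0.0253), and it lost the call in 7 of 28 alternatives, among them quantile normalisation at 0.38. GFAP, the intermediate filament of astrocytes, had −0.63 (SE 0.35, adjusted p = 0.242), EAAT2 −0.30 (SE 0.18), and GJA1, a gap junction protein, 0.46 (SE 0.25), none of them called. The summed scaled signal of the 7 genes was 84.5 to 99.3 with fetal vehicle and 102 to 130 with fetal triclosan, a sum that follows its brightest probes, AQP4 and MT3, while the median difference of the list was below 0. In the indirect arm the sum was 85.2 to 90.3 (vehicle) and 88.8 to 99.7 (triclosan), and the list had a median of −0.43 and 0 genes passed. NKX2.2 was the 1 of 16 listed oligodendrocyte lineage genes measured, so no other gene of that lineage stands beside it. Of 20 ventral patterning genes 7 were measured, and at the brightest probe NKX2.2 was the 1 that fell, with 0 rising. SMO had 0.26 (SE 0.12) at its brightest probe, which was not called, and was called at 1 of its 2 probes. The direction of that call is not given here. SHH, the ventral morphogen, had −1.12 (SE 0.39, adjusted p = 0.0687) on a probe well above background on 6 of 13 arrays, its receptor PTCH1 −0.75 (SE 0.28, adjusted p = 0.0868) and PAX6 −0.50 (SE 0.19, adjusted p = 0.0962). Over the alternatives SHH ran from −1.35 to 0.03, PTCH1 from −0.94 to −0.23 and PAX6 from −0.67 to −0.28. They were called in 3 of 27, 1 of 28 and 2 of 28. BMP4 had 0.33 (SE 0.46) and NKX6-1 −0.12 (SE 0.36), not called.

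Markers of other cell types also differed between the fetal groups, and their part in the falls of FGFR3 and NKX2.2 was not tested. Of 5 endothelial genes measured of 12 listed, 3 fell, namely CD93 by 2.10 (SE 0.40), KDR by 1.57 (SE 0.17) and FLT1 by 1.19 (SE 0.25), and the summed signal of the 5 was 0.812 to 1.16 with fetal vehicle and 0.561 to 0.763 with fetal triclosan. PECAM1, the brightest of the 5 and so the largest part of that sum, had −0.26 (SE 0.18) and TIE1 0.06 (SE 0.16), not called. FLT1, called at 1 of its 2 probes and well above background on 8 of 13 arrays, lost the call under normexp correction and in the deposited value table, and its difference came as close to 0 as −0.04. Of 3 red cell genes 1 rose, AHSP by 0.94 (SE 0.28), with a sum of 4.28 to 12.5 against 11.8 to 23.4, while HBB had 1.32 (SE 0.44) and CA1 1.14 (SE 0.47), not called. Of 2 microglial genes 1 fell, ITGAM by 0.95 (SE 0.29), and FCER1G had 0.46 (SE 0.17). Of 5 meningeal genes 1 rose, PTGDS by 0.55 (SE 0.15). COL3A1 had −0.72 (SE 0.27), COL1A2 −0.42 (SE 0.20) and TIMP1 0.38 (SE 0.17), none of them called at its brightest probe, though 1 of 3 COL3A1 probes was called. These counts stand beside the same 8.97% and 5.98% of named genes. AHSP, ITGAM and PTGDS each lost the call in 8 or more of 28 alternatives, and AHSP and ITGAM were each called at 1 of 2 probes. Of 3 choroid plexus and ependymal genes 0 passed, with TTR at 0.76 (SE 1.00) and VIM at 0.26 (SE 0.21) beside AQP1, and sums of 41.1 to 52.3 against 41 to 88.3. These sums follow VIM, the brightest of the 3, and the red cell sums follow HBB. Of 6 pituitary genes 0 passed, with a median of −0.04. In the indirect arm 0 genes of these lists passed, where 0 of all 13740 probes did. The pituitary median in that arm was 1.32, against 0.03 over all named genes, with differences in both directions. There the red cell sum was 3.28 to 8.9 with vehicle and 10.5 to 26.8 with triclosan, and the endothelial sum was 0.971 to 1.05 and 0.84 to 0.963.

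Of 13 aquaporins 7 were on the array and 6 were tested, of which 0 rose and 0 fell in either arm, with a median of 0.01 under direct exposure. Besides AQP4 and AQP1, the differences were −0.05 (SE 0.19) for AQP2, 0.05 (SE 0.33) for AQP3, −0.03 (SE 0.33) for AQP5 and −0.22 (SE 0.30) for AQP8. Of 24 listed genes of water and ion balance 9 were measured, 1 rose and 0 fell, with a median of −0.04. ATP1B1, a beta subunit of the sodium pump, had 0.35 (SE 0.14, adjusted p = 0.0953), and the sodium channel subunits SCNN1A, SCNN1B and SCNN1G had −0.65 (SE 0.36), −0.64 (SE 0.26) and −1.11 (SE 0.65), none called.

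The size of the direct difference over all probes went with brightness. Ranked by mean signal into 10 classes of 1374 probes, the median difference was −0.29 in the dimmest class and 0.24 in the brightest. FGFR3 lay in class 2 from the bottom, where the median was −0.27 and 9.83% of probes were called lower, and 15 probes of that class fell at least as far as its probe 1. NKX2.2 lay in class 6, with a median of −0.14 and 15.4% called lower, and 45 probes of its class fell at least as far. Over all classes 72 probes fell as far as FGFR3 probe 1, or 0.524%, and 495 as far as NKX2.2 probe 2, or 3.6%. AQP4 lay in the brightest class, where 27.7% of probes were called higher, and AQP1 in the dimmest.

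**Figure D4:**
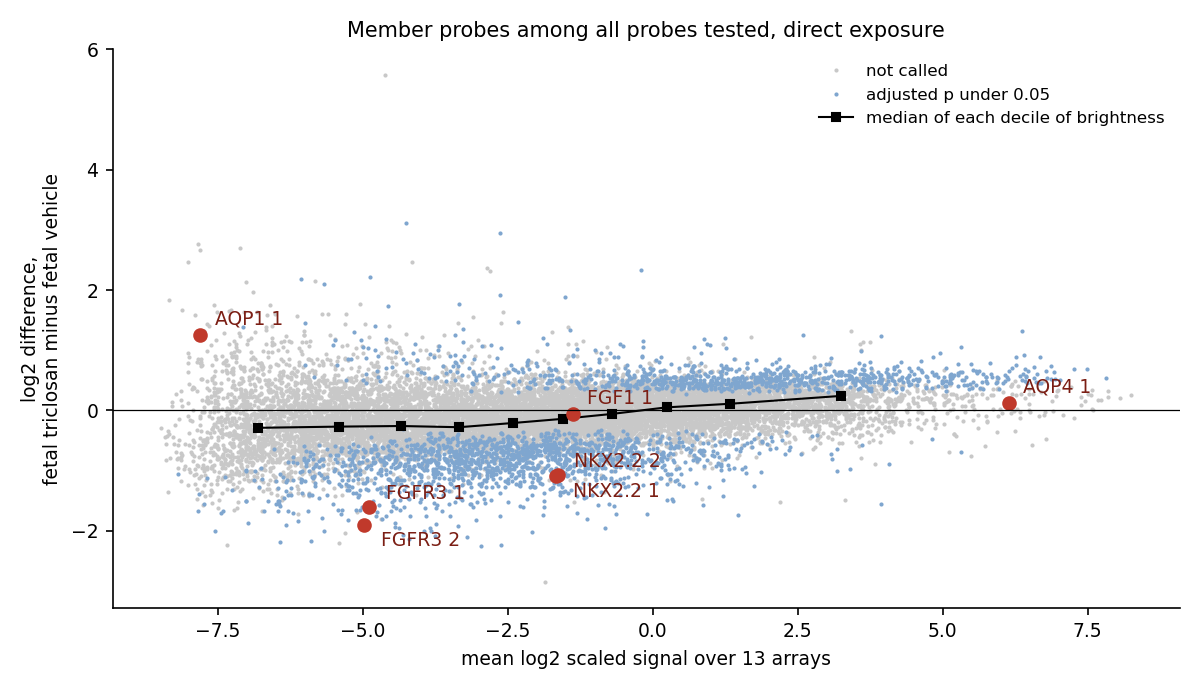
Log2 difference of direct exposure against mean log2 scaled signal for all 13740 probes, blue where the adjusted p was under 0.05, with the median of each class of brightness as a black line and the member probes in red. The line runs from −0.29 to 0.24, FGFR3 and NKX2.2 lie well below it, and FGF1 and AQP4 lie near it.

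Across the processing alternatives that leave no array of the direct arm out, FGFR3 probe 1 ranged down to −0.40 and NKX2.2 probe 2 to −0.86, and the alternatives that moved FGFR3 most were normexp correction (−0.40) and the authors' deposited values (−0.64). With every value raised to a common floor FGFR3 probe 1 was at −1.61 (limma adjusted p = 0.00925). That is the difference of the main fit, so the floor does not bear on this probe's low signal. Probe 2 moved from −1.91 to −1.78 (limma adjusted p = 0.00553). The other genes had no call under any of these alternatives.

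**Figure D5:**
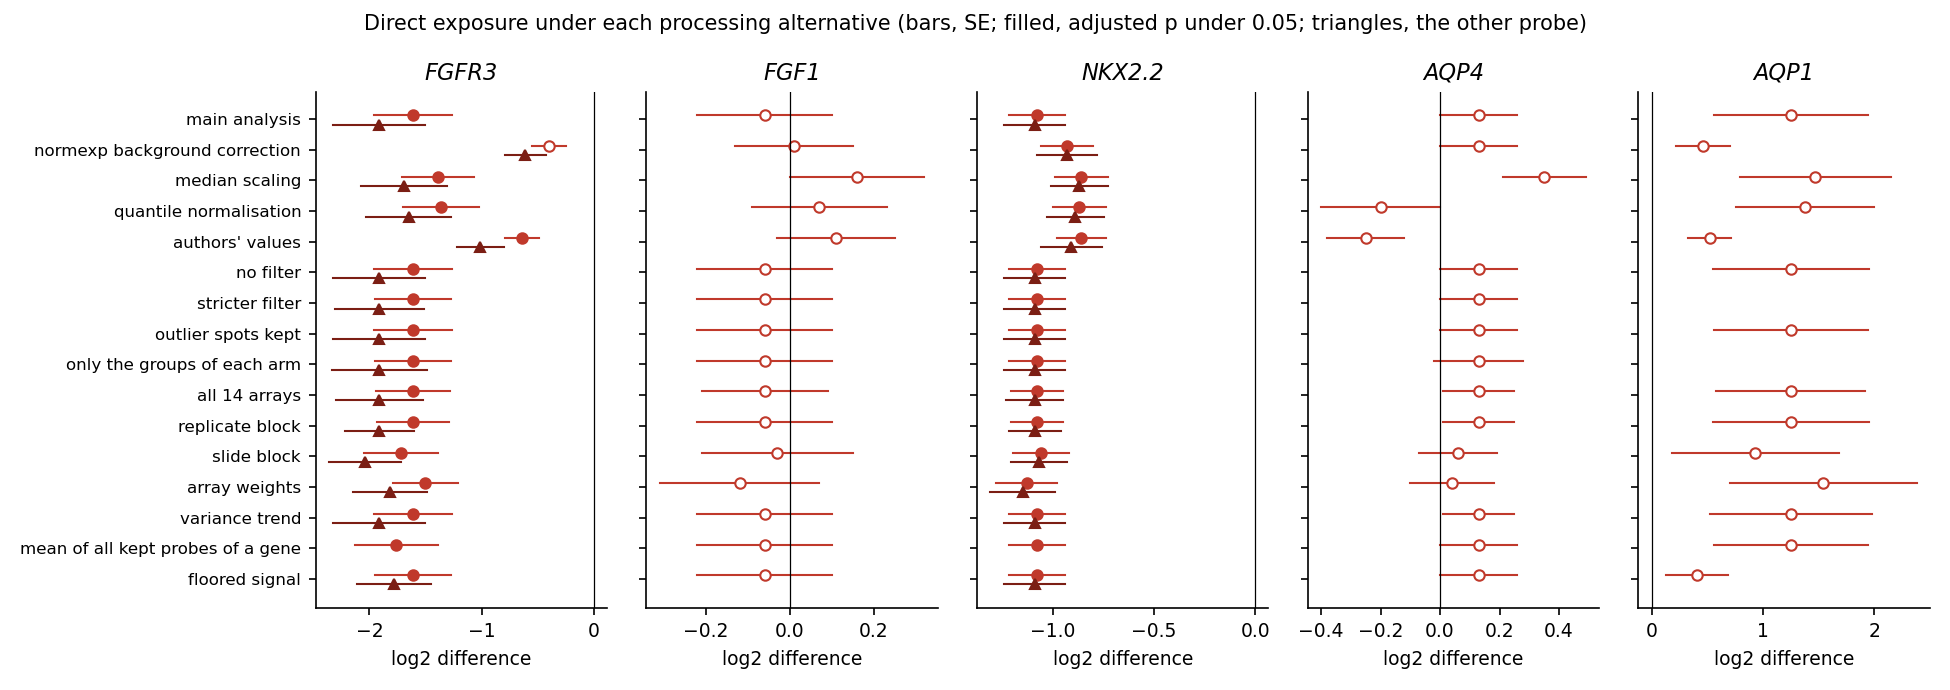
Log2 difference of direct exposure for each gene (circles) and its other probe (triangles) under each way of processing, with the SE as a bar and filled symbols where the adjusted p was under 0.05; each panel has its own horizontal scale. NKX2.2 stays filled throughout, FGFR3 is open once, under normexp correction at −0.40, and FGF1 and AQP4 fall on both sides of 0.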

How the data were processed

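RNA of fetal hypothalamus was hybridised to 14 single-colour (Cy3) Agilent ovine arrays. Spot intensity values in the scanner files came from Agilent Feature Extraction (10.1.1.1, per the file headers), and the processed signal had the background removed within the array by the authors. The deposited value table (13899 probes) was read as log2 because each column lay closest to the log2 signal of its own array (r from 0.986 to 0.993), in the same direction, with column medians of 8.78 to 8.80. How it was scaled between arrays remains unknown. The submitters' processing notes also name limma, with no role.

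Each array's 75th percentile was subtracted from the log2 processed signal. Control spots and outlier-marked spots were dropped, spots of a probe averaged, and probes well above background on 3 or more arrays kept (13740 probes, 250 missing values). Group means over 13 arrays were fitted with limma (3.58.1, R 4.3.3; 9 residual and 2.36 prior degrees of freedom), with two-sided p-values adjusted by Benjamini-Hochberg over all probes at 0.05, after testing on simulated data. The contrasts were direct exposure, indirect exposure, their difference, and maternal against fetal vehicle. The brightest probe stood for a gene. The number of arrays limits the precision. Plots used matplotlib 3.10.9 under Python 3.11.15, with tables in pandas 2.3.3 and numpy 2.4.6.

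Of 15008 probes, 1656 were named, through RefSeq transcript (726), symbol (500), gene number (139), older symbol (20) or the file's own name (271). No genome was used, so no coordinates are given. Probe sequences are those in the scanner files.

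The members, the lists and the naming rule were chosen with earlier results of these data known. The rule named every probe of the members, list genes past the threshold, up to 3 others per list by smallest unadjusted p in the direct contrast, and the 3 genes most correlated with each member. Exceptions named after their values were seen are FGF7, AQP2, AQP3, AQP5, SCNN1G, OXT, SMO, BMP4 and NKX6-1. Some genes that the rule picks, and some probe sequences, are not reported here. Slides 1, 2 and 3 each held the arrays of the same number, except that maternal vehicle replicate 3 was on slide 4, and slide 3 also held fetal vehicle replicate 4. Slide 5, scanned separately, held fetal triclosan replicate 4. Alternatives were normexp correction (offset 50), other scalings, the authors' values, other filters, slide and replicate blocks, array weights and leaving out each array.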

Additional observations from a re-analysis of the deposited data

Results flagged for a closer look

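FGFR3 probe 2 on fetal triclosan replicate 2 was at −7.68, against −5.90, −5.91 and −5.55 on the other arrays of its group, a gap that takes 0.833 of the group's range and exceeds Dixon's 95% critical value. The same array was lowest at probe 1 (−7.10), where the share was 0.812 and did not exceed it. Neither spot was well above background there, and without this array both probes were still called.

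AQP1 probe 2 on fetal vehicle replicate 2 was at −8.72, against −7.58, −7.68 and −7.71, a gap of 0.888 of the range. None of these 4 values was well above background. Chance gives such a gap in about 1 in 20 groups, and 16 groups of 4 arrays were examined.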

How the results depend on the processing

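NKX2.2 kept its direction and its call under direct exposure in all 28 alternatives, and FGFR3 in 27 of 28 (−1.79 to −0.40). With normexp background correction FGFR3 probe 1 had −0.40 (adjusted p = 0.104), which left 1 member gene past the threshold. Without each array in turn, FGFR3 ranged from −1.79 to −1.23 and NKX2.2 from −1.14 to −1.0. Both were called in every fit that left out an array of the direct arm. Leaving out a maternal array kept both differences as they were, since the direct difference does not use those arrays. Other filters and the variance trend also kept them and changed the test alone.

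Signs turned for values that were never called. Normexp correction gave 0.01 for FGF1 (direct), −0.53 for AQP1 (indirect) and 0.29 for FGFR3 (between the arms). Median scaling gave 0.16 for FGF1 (direct) and 0.12 for AQP4 (between the arms). Quantile normalisation gave 0.07 for FGF1 and −0.20 for AQP4 (direct), −0.43 for AQP1 (indirect) and 0.11 for AQP4 (vehicle groups). The authors' values gave 0.11 for FGF1 and −0.25 for AQP4 (direct), −0.09 for AQP4 and −0.07 for AQP1 (indirect) and 0.02 for AQP4 (vehicle groups). Indirect AQP1 was −0.05 with all 14 arrays, −0.27 with array weights and −0.15 with the common floor. Without single arrays, direct FGF1 ran from −0.16 to 0.05, indirect FGF1 from −0.02 to 0.55, indirect AQP1 from −1.06 to 0.70, and AQP4 between the arms from −0.16 to 0.04 (0.03 without fetal triclosan replicate 1). The causes were not tested.

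Over all probes, direct calls numbered 2490, against 1589 with quantile normalisation, 1339 with the direct arm fitted alone, 1223 without fetal vehicle replicate 3 and 1654 without fetal vehicle replicate 1. Under median scaling the median over all probes was 0.13 in place of −0.09, with 2174 higher and 946 lower calls. Indirect calls numbered 408 with array weights and 12 with all 14 arrays. In that 408-call fit indirect FGFR3 was at −1.09 (adjusted p = 0.0554).

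With a replicate block, direct FGFR3 was −1.61 (adjusted p = 0.0129) and NKX2.2 −1.08 (adjusted p = 0.0039), and indirect FGFR3 was −1.13 (adjusted p = 0.417). Same-numbered arrays deviated together only in part, with correlations of 0.13, 0.12, 0.26 and −0.17 in the direct arm and −0.08 and −0.08 in the indirect arm. Of 4 fetal vehicle arrays 2 correlated best with their own number. They were therefore not treated as pairs. With the slide as a block direct FGFR3 was −1.72 and NKX2.2 −1.06, both called. AQP1 was not tested under the stricter filter, with each arm alone, or without maternal vehicle replicate 1, fetal triclosan replicate 1 or maternal triclosan replicate 2. Low signal limits FGFR3 and AQP1.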
